A study of Rattus norvegicus with 2 samples.

Results

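The genes described here are 10 keratin, biliary and liver progenitor genes of the rat, namely Krt7, Krt8, Krt18, Krt19, Sox9, Epcam, Spp1, Afp, Cd24 and Prom1, measured in liver regrowing after surgery. They were chosen by name, as probe sets whose platform annotation carries one of these symbols. Of the 10, 9 had a probe set, 1 each, out of 14217 named genes on the array, and Sox9, a transcription factor of bile duct cells, had none under that symbol and is not analysed here. The tissue was the liver left in place 24 h after partial hepatectomy (PH), in which 1/3 of the organ (1/3PH) or 2/3 of it (2/3PH) was removed. According to the design text of the series, 6 rats were operated on and the RNA of the 3 rats of each group was pooled, so that each group was a single array. The design text describes 2/3PH as followed by robust DNA replication and 1/3PH by a minimal one, and the comparison addressed which transcripts differ between them. The labels used here name no strain, sex or age, and liver without surgery or after a sham operation was not analysed here.

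Keratins are the intermediate filament proteins of epithelial cells, and each filament is built from pairs of a type I and a type II keratin. Hepatocytes make mainly the pair Krt8 (type II) and Krt18 (type I), whereas the cells of bile ducts, the cholangiocytes, also make Krt7 (type II) and Krt19 (type I). Krt7, Krt19, Sox9, Epcam, Spp1, Cd24 and Prom1 are in common use as markers of ducts or of the duct-derived progenitor cells that expand when hepatocytes cannot divide, and Afp is the main plasma protein of the fetal liver. After plain partial hepatectomy in rodents, the liver is known to regrow mostly through division of its existing hepatocytes.

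With 1 array per group no difference below has a replicate check, no test was made, and "higher" and "lower" mean the 2/3PH array against the 1/3PH array. The values are signals from the MAS 5.0 algorithm, which condenses the probes of a probe set into 1 number and scales each array by 1 factor. A probe set was taken as near background when its mean log2 signal lay under the median of all probe sets that are not controls, here 6.48, a signal of 89.2, called the floor below. Only the spread within the arrays could be measured. Between the 2 brightest probe sets of a gene, over 2067 genes with 2 or more above the floor, it gave an SD of 0.31 for the log2 ratio of 1 probe set. That SD was 0.23 where both probe sets lay above the 75th percentile of signal and 0.35 where the dimmer one did not. It holds no variation between animals. In bulk liver, fewer cells of a type and less RNA per cell cannot be told apart.

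Krt18 and Krt8 were bright and higher after 2/3PH, and Afp and Krt19 were higher by smaller amounts. Epcam and Prom1 differed by less than the within-array SD of 0.31. Spp1 was lower, Cd24 was lower with its 2/3PH signal under the floor, and Krt7 was near background on both arrays. Of the 8 genes above the floor, 6 had log2 ratios above 0 and 2 below, where 52.9% of the 9514 genes above the floor were above 0. At the 1.5-fold limit 2 were higher (Krt18 and Krt8), against 15.8% of all genes, and 1 was lower (Spp1), against 12%. Just 1 of the 8, Krt18, was at least 2-fold higher, against 6.12% of all genes above the floor, and none was at least 2-fold lower, against 3.68%. Those shares of all genes were 16.3% and 1.33% with the poly-A scaling described below, and 10.2% and 2.21% with scaling to the hybridisation controls. The median log2 ratio of these members was 0.38 and that of all genes above the floor 0.03. Beyond 2 within-array SDs lay 3 of the 8 (Krt18, Krt8 and Spp1), and 25.2% of all genes above the floor did so too. That count used the SD of 0.31 for every gene. With the SD of 0.23 for bright and 0.35 for dimmer probe sets, Afp would pass 2 SDs and Spp1 would not.

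**Figure D1:**
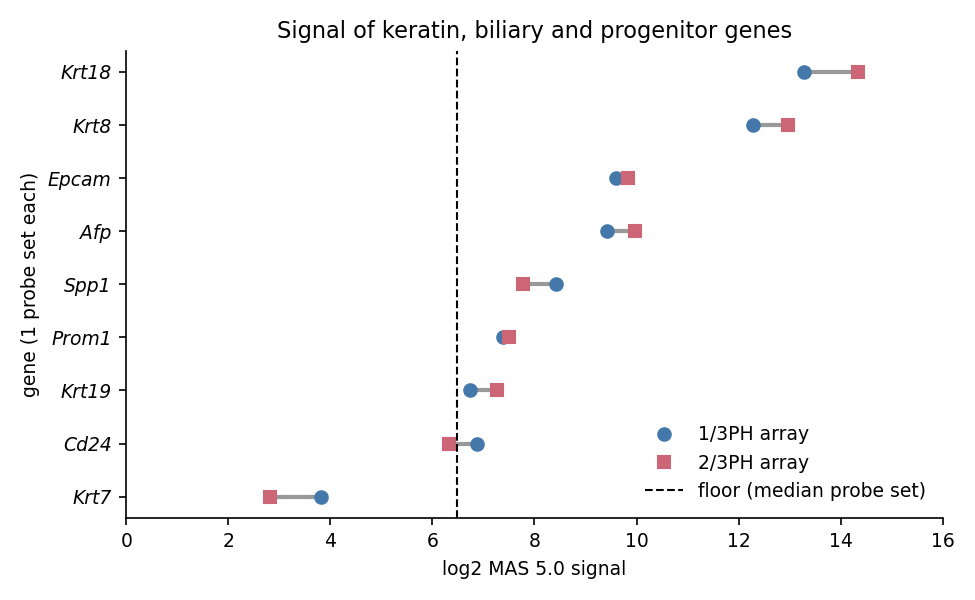
Log2 MAS 5.0 signal (horizontal axis) of the 9 measured genes (vertical axis) on the 1/3PH array (circles) and the 2/3PH array (squares), 1 pool of 3 rats each, with the floor of 6.48 as a dashed line. Krt18 and Krt8 lie far to the right of the floor with the 2/3PH square to the right of the 1/3PH circle, Krt7 lies left of it, and Cd24 straddles it. Positions of different genes are set by different probes, so a row shows 2 arrays and not a ranking of genes.

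The sequences around the annotated starts of Krt18, Krt8 and Afp are shown first. These were the members with a RefSeq promoter window whose log2 ratio was above the within-array SD. Krt18 and Krt8 are also neighbouring genes that were higher together. Each window runs from 250 bases before to 50 bases after the annotated start, 5′ to 3′ on the gene's own strand, from RefSeq on build GRCr8. The windows lie at chr7:135035918-135036217 on the plus strand for Krt18, chr7:135010290-135010589 on the minus strand for Krt8 and chr14:17875596-17875895 on the minus strand for Afp. Capitals mark matches, on either strand, to a TATA box (TATAAA), a GC box (GGGCGG), an AP-1 motif (TGANTCA) or an HNF1 half-site (GTTAAC).
Krt18: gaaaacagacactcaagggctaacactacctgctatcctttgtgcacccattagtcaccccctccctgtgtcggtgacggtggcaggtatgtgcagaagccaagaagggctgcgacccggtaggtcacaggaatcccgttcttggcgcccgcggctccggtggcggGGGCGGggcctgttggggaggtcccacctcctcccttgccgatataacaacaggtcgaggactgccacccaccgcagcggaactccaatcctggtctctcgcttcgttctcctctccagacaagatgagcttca
Krt8: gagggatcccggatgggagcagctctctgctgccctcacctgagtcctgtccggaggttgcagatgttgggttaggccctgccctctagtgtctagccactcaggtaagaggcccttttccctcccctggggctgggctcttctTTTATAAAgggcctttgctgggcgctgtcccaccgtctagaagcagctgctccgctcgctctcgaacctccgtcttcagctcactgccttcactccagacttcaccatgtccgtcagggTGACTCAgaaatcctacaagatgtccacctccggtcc
Afp: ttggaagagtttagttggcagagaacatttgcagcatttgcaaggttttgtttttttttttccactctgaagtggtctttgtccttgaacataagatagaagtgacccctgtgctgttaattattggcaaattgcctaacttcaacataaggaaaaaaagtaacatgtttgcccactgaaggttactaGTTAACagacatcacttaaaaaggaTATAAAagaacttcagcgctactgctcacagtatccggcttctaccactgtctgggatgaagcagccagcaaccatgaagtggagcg

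Krt18 and Krt8 point away from each other on chromosome 7, with 25829 bases between their starts, and their windows shared none of the 4 marked motifs. The Krt18 window held 1 GC box, a motif found in 33.1% of 33469 rat promoter windows of the same length. The Krt8 window held a TATA box, read on both strands in 2 overlapping matches (14.2% of windows hold one), and an AP-1 match after the annotated start (7.33%). In the Afp window a TATA box stood 37 bases before the start and an HNF1 half-site 62 bases before it. HNF1 is a family of liver transcription factors, and 2.78% of the windows held this half-site. Of the 7 members with a window (Krt8, Krt18, Epcam, Spp1, Afp, Cd24 and Prom1), 4 held a GC box, 3 a TATA box, 3 an AP-1 match and 1 an HNF1 half-site. A core motif of the Notch effector RBPJ (TGGGAA) was in none of the 7, against 25.7% of all windows, and a CCAAT box (CCAAT), left in lower case above, was in 3 of the 7, against 37.5%. These are matches of letters and not sites shown to be bound.

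Krt18, the type I keratin of hepatocytes, gave signals of 9994 (1/3PH) and 20841 (2/3PH). The 2/3PH signal was 2.09-fold higher, a log2 ratio of 1.06, just past the 2-fold limit. That ratio was at the 94.6 percentile of the 9514 genes above the floor. Among the 5729 genes at or above the 75th percentile of signal, where Krt18 lies, 4.97% were at least 2-fold higher.

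Krt8, the type II partner of Krt18, gave signals of 4952 (1/3PH) and 8020 (2/3PH). It was 1.62-fold higher, a log2 ratio of 0.70, at the 88.0 percentile of genes above the floor. The log2 ratios of the pair differed by 0.36. The SD for a difference between 2 single probe sets was 0.44 over all pairs above the floor. That value is too wide for bright probe sets such as these, where the SD of 1 probe set was 0.23 against 0.31 over all pairs. The pair is therefore shown neither to agree nor to differ beyond the spread within the arrays. On the same arrays all 12 listed hepatocyte markers were measured above the floor and all 12 had ratios below 0, with a median of -0.23. Asgr2 was 2.18-fold, Cyp2e1 1.82-fold and Asgr1 1.70-fold lower, and none of the 12 was 2-fold lower with either control scaling. The side of that median held with median centring, but the median was -0.01 with quantile normalization and with loess, 0.20 with poly-A scaling and 0.01 with scaling to the hybridisation controls. The summed signal of the hepatocyte list was 301763 after 1/3PH and 257567 after 2/3PH, with no marker at 0. What part a shift in hepatocyte RNA has in the keratin ratios was not tested.

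Krt19, the duct keratin of type I, gave signals of 107 (1/3PH) and 154 (2/3PH). Both values lay above the floor of 89.2 by little. The ratio of 1.44-fold, or 0.53 in log2, was 1.70 times the within-array SD of 0.31. It is fewer SDs by the value of 0.35 for dimmer probe sets. Krt7, the duct keratin of type II, had signals of 14.1 and 7.06, at the 16.5 and 9.42 percentiles of their arrays. Both Krt7 values were below the 25th percentile of probe sets, a signal of 24.8, and no fold is given. The duct keratins therefore gave 1 usable ratio, above 0 like those of the hepatocyte pair.

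Epcam, an adhesion protein on the surface of duct and progenitor cells, gave signals of 777 (1/3PH) and 912 (2/3PH). The log2 ratio of 0.23 was smaller than the within-array SD of 0.31, and about equal to the SD of 0.23 for bright probe sets. Prom1 (CD133), a membrane protein used to sort progenitor cells, gave signals of 166 (1/3PH) and 180 (2/3PH). Its log2 ratio of 0.12 was within the SD of 0.31. With 1 array a group neither a difference nor its absence is shown for these genes.

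Cd24, a small sialoglycoprotein of the surface of progenitor and blood cells, gave signals of 117 (1/3PH) and 80.0 (2/3PH). The second value was under the floor, so on the deposited scale the gene is given as at least 1.31-fold lower against the floor. Its measured log2 ratio was -0.54, and with poly-A scaling it was 1.08-fold lower. Its mean log2 signal was only 0.11 above the floor, the member just inside it. Its probe set carries the suffix _a_at, which Affymetrix gives to probe sets that may read several transcripts. Markers of neutrophils and red cells, which carry Cd24 in the mouse, were lower on the same array. Of their 6 measured markers 4 reached the floor, all with ratios below 0, with a median of -0.98, and S100a9 was 2.52-fold lower. With poly-A scaling the median was -0.55 and 0 of the 4 were 2-fold lower, and with median centring 3 were. Their summed signal was 27242 after 1/3PH and 13580 after 2/3PH, with none at 0. Most of both sums was the haemoglobin gene Hbb, at 24195.5 and 12168 by 1 probe set, so the sum says little of neutrophils. The part of these cells in the Cd24 value was not tested.

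Spp1 (osteopontin), a secreted phosphoprotein of ducts, macrophages and activated stellate cells, gave signals of 342 (1/3PH) and 218 (2/3PH). It was 1.57-fold lower, a log2 ratio of -0.65, at the 10.2 percentile of genes above the floor, and its probe set is also of the _a_at kind. On these arrays 11 of 12 macrophage and Kupffer cell markers above the floor had ratios below 0, with a median of -0.43 that was 0.00 with poly-A scaling, led by Lyz2 at 2.44-fold lower (under 2-fold with poly-A scaling). The summed signal of the 13 measured macrophage markers was 28577 after 1/3PH and 20240 after 2/3PH. Stellate cell and fibroblast markers had 7 of 9 ratios below 0 and a median of -0.73. Lum was 3.51-fold, Lrat 2.46-fold and Col1a1 2.05-fold lower. Pdgfrb, by its brightest probe set, and Des went the other way, at log2 ratios of 0.43 and 0.20. Acta2 lay just under the floor on average, with signals of 69.5 after 1/3PH and 113 after 2/3PH. Pdgfrb, Des and Acta2 were added after their values were seen. The stellate median was -0.30 with poly-A scaling, where Lum alone stayed 2-fold lower, and 2 did (Lum and Lrat) with scaling to the hybridisation controls. Their summed signal was 14592 and 8646. No marker of either list was at 0, and the part of these cells in the Spp1 value was not tested.

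Afp, the fetal counterpart of albumin, gave signals of 686 (1/3PH) and 1002 (2/3PH). It was 1.46-fold higher, a log2 ratio of 0.55, at the 82.8 percentile of genes above the floor. Albumin itself, the adjacent gene in RefSeq order, had signals of 34570 and 29468, a log2 ratio of -0.23. Of 13 measured genes of the albumin locus and of factors known to control Afp, 12 had ratios below 0, and the median of the 13 was -0.34, or 0.09 with poly-A scaling. None passed 2-fold by its brightest probe set. The vitamin D carrier Gc, in the same gene family, stood at -0.17 by its brightest probe set and -0.75 by its other one. Zhx2, a repressor of Afp in mouse liver, was outside the rule for named genes and was added after its value was seen. Its signal was 283 after 1/3PH and 194 after 2/3PH, 1.46-fold lower, a difference that poly-A scaling makes smaller. Zbtb20 and Zfhx3, other listed factors that control Afp, were likewise added. They stood at log2 ratios of -0.07 and -0.03 by their brightest probe sets. The other Zbtb20 probe sets above the floor ranged from -0.64 to 0.15. Cebpa, a hepatocyte transcription factor also added after its value was seen, stood at a log2 ratio of -0.91 by its brightest probe set, and 3 others above the floor gave log2 ratios between -1.31 and -1.49.

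**Figure D2:**
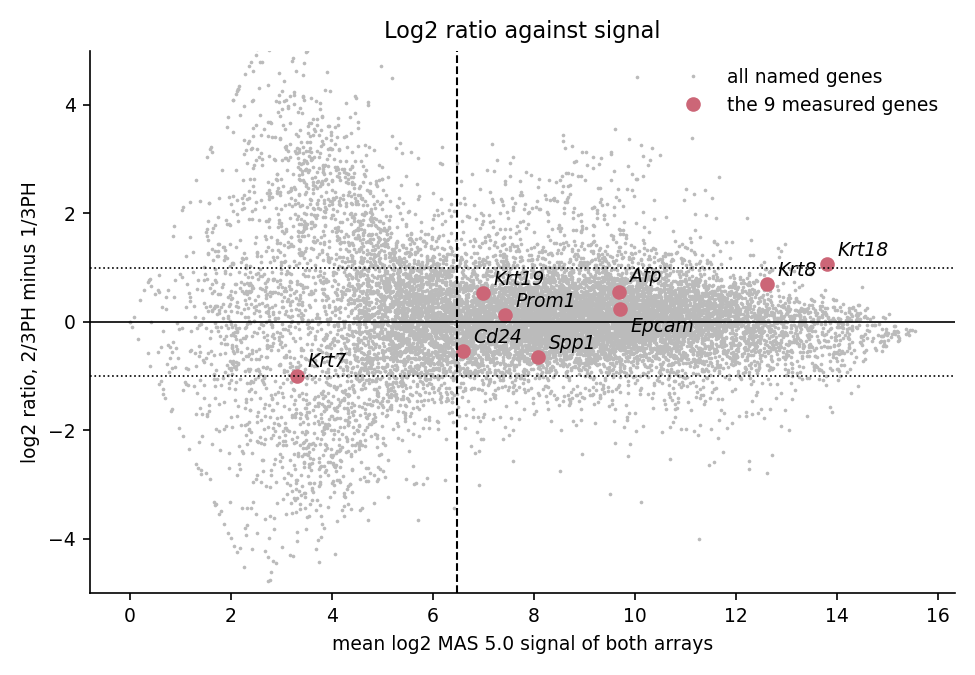
Log2 ratio, 2/3PH minus 1/3PH (vertical axis), against the mean log2 signal of both arrays (horizontal axis) for all 14217 named genes (grey) and the 9 measured genes (red), with the floor dashed and the 2-fold limits dotted. Krt18 sits at the upper 2-fold limit at the bright end, where grey points spread little, and Krt7 sits among the widely scattered genes left of the floor. Points of 10 genes with log2 ratios beyond 5 either way lie outside the plot.

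The choice of scaling moved every ratio. MAS 5.0 gives both arrays the same mean, and other scalings move that shared reference. Scaling to the 18 hybridisation control probe sets added 0.24 to every log2 ratio, and scaling to the 27 poly-A control probe sets added 0.43. The poly-A probe sets are made for RNAs that can be added to a sample before labelling. All these control probe sets were used whatever their signal, and whether the RNAs were added here was not checked. Over 6 scalings Krt18 ranged from 1.01 to 1.49, Krt8 from 0.64 to 1.12, Afp from 0.46 to 0.98 and Krt19 from 0.48 to 0.96. Epcam ranged from 0.15 to 0.66 and Prom1 from 0.06 to 0.54. Spp1 ranged from -0.74 to -0.22 and Cd24 from -0.59 to -0.11. No member changed its sign among these 6 scalings, and Krt18 stayed past 2-fold in all 6, whereas Krt8 passed it with poly-A scaling alone. The median of all genes above the floor moved from 0.03 to 0.46 with poly-A scaling, so the ratios under that scaling are to be read against that shift.

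**Figure D3:**
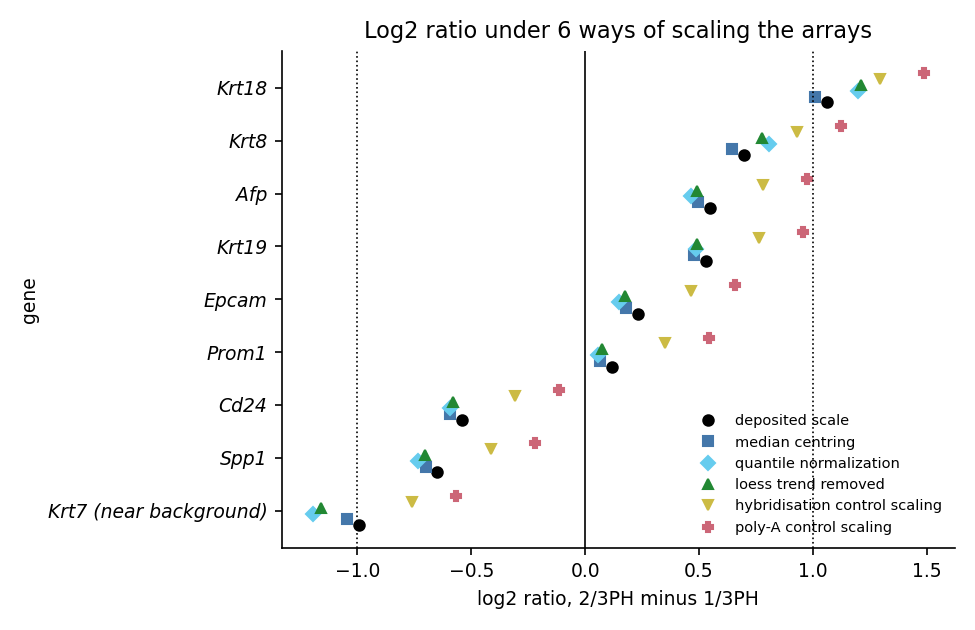
Log2 ratio, 2/3PH minus 1/3PH (horizontal axis), of each measured gene (vertical axis) under 6 ways of scaling the 2 arrays, each way with its own symbol, and the 2-fold limits dotted. The points of Krt18 all lie beyond the upper limit, from 1.01 to 1.49, and those of Spp1 and Cd24 all lie below 0. Krt7 is plotted for completeness and is near background.

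Other keratins, other intermediate filament genes and the proteins that anchor filaments were divided. Of 30 listed genes, 29 were measured and 17 reached the floor, with a median log2 ratio of 0.11 that was -0.08 with the mean over probe sets. At least 2-fold higher were 2 of the 17, and 1 was as far lower. The higher ones were the nuclear lamins Lmnb2 (signals of 129 and 326, 2.53-fold) and Lmnb1 (1148 and 2386, 2.08-fold), and a second Lmnb1 probe set gave a log2 ratio of 0.20. Pkp3, a plakophilin of the desmosomes to which keratin filaments attach, had signals of 219 and 65.0, at least 2.46-fold lower. The desmosomal cadherins Dsc2 and Dsg2, the brightest of the list, stood at -0.52 and 0.11. Desmoplakin (Dsp), which links the filaments to the desmosome, and plakoglobin (Jup) were added after their values were seen. Dsp had signals of 1861 and 3415, a log2 ratio of 0.88, and Jup 673 and 377, a log2 ratio of -0.84.

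Other cholangiocyte genes did not lie on one side. Of 30 listed, 25 were measured and 14 reached the floor, with a median of -0.19 that was 0.24 with poly-A scaling and 0.04 with scaling to the hybridisation controls. None of the 14 was higher by 2-fold and 1 was lower by that much. With scaling to the hybridisation controls 1 was higher (Atp1b1), and with poly-A scaling 2 were (Atp1b1 and Itga6). The lower one was Slc10a2, the bile acid uptake carrier of ducts and ileum, with signals of 232 and 71.6, at least 2.60-fold lower. Atp1b1, a sodium pump subunit, had signals of 2154 and 3749, and Cdh1, the epithelial cadherin shared with hepatocytes, 3077 and 2585. On the shorter list of 10 duct-defining markers, 7 were measured and 3 reached the floor, Krt19, Epcam and Slc10a2. The other measured ones, Krt7, Cftr, Sctr and Cldn4, had signals between 3.58 and 53.5. The summed signal of the 7 was 1230 after 1/3PH and 1283 after 2/3PH, and none was at 0. Of the 7, 4 were thus near background in these whole-liver pools, and the name biliary is used here for the known use of the genes. Krt8, Krt18 and Krt19 are also made by the mesothelium on the liver surface, for which 2 of 5 measured markers reached the floor, Gpm6a at a log2 ratio of 0.61 and Lrrn4 at -0.26. The mesothelial summed signal was 1639 and 2015, with none at 0, and its part was not tested.

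Among other progenitor and fetal liver genes, the largest difference above the floor was that of the TWEAK receptor. Tnfrsf12a (Fn14), through which the cytokine TWEAK drives progenitor growth in mouse liver, had signals of 155 and 738, 4.76-fold higher. Its ligand Tnfsf12, added after its value was seen, had signals of 533 and 482, a log2 ratio of -0.15. Of 26 listed genes, 21 were measured and 13 reached the floor, with a median of 0.03 that was -0.02 with median centring. Past the 2-fold limit, 2 were higher and 1 was lower, but these counts moved with the scaling. They were 5 and 0 with poly-A scaling, where the median was 0.45, 3 and 1 with scaling to the hybridisation controls, and 1 and 1 with median centring, quantile normalization or loess. Cd44, the hyaluronan receptor that also binds osteopontin, had signals of 69.5 and 142, at least 1.59-fold higher against the floor, and its other probe set lay under the floor. It is counted past 2-fold by its measured ratio of 1.03, a count lost under several alternatives, which are named with the osteopontin receptors. Cxcl12, a chemokine, was 2.38-fold lower at signals of 14194 and 5962 (under 2-fold with poly-A scaling), and its 3 probe sets all gave ratios between -1.25 and -1.51. Aldh1a1, the next brightest, stood at 0.07. The fetal and stem cell genes Dlk1, Gpc3, Igf2 and Lgr5, added after their values were seen, were all under the floor, at signals between 4.17 and 85.0. Other fetal genes of the list, added in the same way, were above it and went opposite ways. H19 had signals of 80.3 and 153, at least 1.71-fold higher. Igf2bp3 had signals of 1674 and 1158, and its 3 probe sets gave log2 ratios between -0.53 and -1.16.

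Of 11 listed receptors of osteopontin, 10 were measured and 9 reached the floor. Ratios above 0 were found for 6 of the 9, beside 52.9% of all genes above the floor, and for 5 of the 9 with median centring, quantile normalization or loess. With either control scaling 8 of the 9 were above 0. The list had a median of 0.35 that was 0.02 with the mean over probe sets. It was 0.78 with poly-A scaling and 0.59 with scaling to the hybridisation controls, where the medians of all genes above the floor were 0.46 and 0.27. With poly-A scaling 2 of the 9 were at least 2-fold higher, beside 16.3% of all genes. On the deposited scale Cd44 alone passed 2-fold, by its measured ratio of 1.03. None did with median centring, quantile normalization, loess, 64 units added, the mean over probe sets, the higher floor or without _a_at probe sets. The integrins Itgb1 and Itgav, the brightest of the list, had log2 ratios of 0.35 and 0.45, and their other probe sets ranged from 0.21 to 0.76.

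Notch signalling directs hepatoblasts toward the duct fate. Of 30 listed genes of this pathway, 29 were measured and 18 reached the floor, with a median of 0.03 that was -0.02 with median centring and -0.32 with the mean over probe sets. No gene of the 18 was higher by 2-fold, and 2 were lower by it. With poly-A scaling 1 was higher and 1 lower and the median was 0.46, and 1 was lower with 64 units added or with the mean over probe sets. On the deposited scale the lower ones were the target gene Hey1, with signals of 237 and 57.6, at least 2.66-fold lower, and the endothelial ligand Dll4, with signals of 240 and 91.4, 2.62-fold lower. A second Dll4 probe set was near background. Other target genes went the other way, and they were added after their values were seen. Hes1 had signals of 644 and 1025, a log2 ratio of 0.67, and Nrarp stood at 0.38 by its brightest probe set. On these arrays all 7 measured endothelial markers had ratios below 0, with a median of -0.66, and 5 of the 7 did with poly-A scaling. Kdr was 2.11-fold lower, under 2-fold with both control scalings, and the list had a summed signal of 11915 after 1/3PH and 7598 after 2/3PH, with none at 0. The part of endothelial cells in the Hey1 and Dll4 values was not tested. The gamma-secretase subunits Psenen and Aph1a, the brightest of the list, stood at -0.65 and 0.08. The ligand Jag1, which acts in duct formation and was added after its value was seen, had signals of 137 and 141.

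Listed partners of Epcam, Cd24 and Prom1 showed 1 difference past 2-fold. Of 13 listed, 12 were measured and 8 reached the floor, with a median of -0.17 that was 0.25 with poly-A scaling and 0.06 with scaling to the hybridisation controls. Siglec5, a sialic acid-binding lectin of myeloid cells, had signals of 395 and 192, 2.05-fold lower, and under 2-fold with both control scalings. Beta-catenin (Ctnnb1) and the tetraspanin Cd81, the brightest, stood at -0.11 and -0.46.

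**Figure D4:**
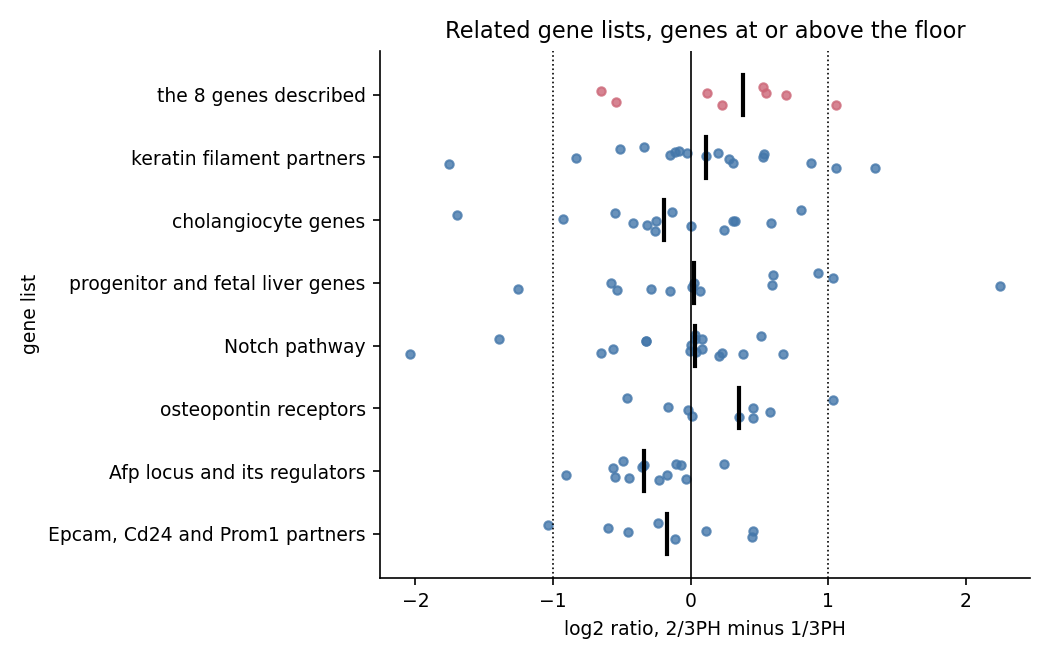
Log2 ratio, 2/3PH minus 1/3PH (horizontal axis), of each gene above the floor in 8 lists (vertical axis), with list medians as black bars and 2-fold limits dotted. The 8 genes described (red) have a median of 0.38, and the 7 related lists have medians between -0.34 and 0.35 with points on both sides of 0, all on the deposited scale.

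For scale, genes of cell division differed more than any of the 8 genes described. All 8 proliferation markers were at least 2-fold higher, from Pcna at 2.71-fold to Ccna2 at 11.7-fold, with a median log2 ratio of 3.00. As a measure of RNA quality, the signal ratio of the 3′ to the 5′ probe set was 1.58 after 1/3PH and 1.28 after 2/3PH for GAPDH, and 6.68 and 7.53 for beta-actin. Lymphocyte markers were mostly near background, with 3 of 8 above the floor and Gzma at least 1.69-fold lower.

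**Figure D5:**
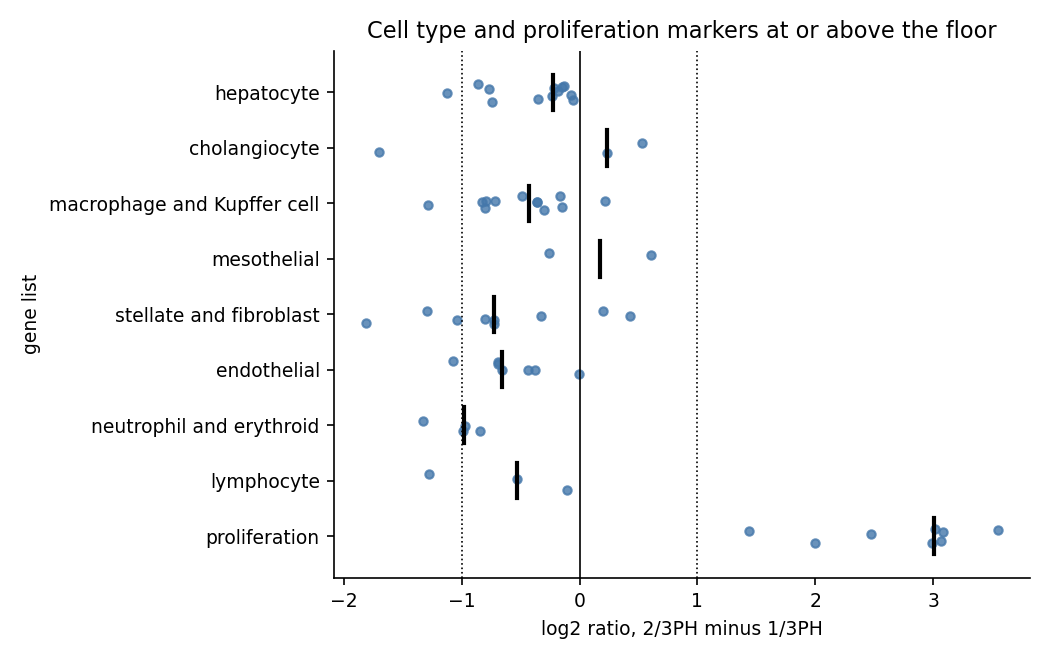
Log2 ratio, 2/3PH minus 1/3PH (horizontal axis), of each marker above the floor in 9 lists (vertical axis), with list medians as black bars and 2-fold limits dotted. On the deposited scale shown, all 12 hepatocyte markers lie below 0, the 3 cholangiocyte markers lie on both sides, and all 8 proliferation markers lie right of the upper limit.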

How the data were processed

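Liver RNA from 2 pools of 3 rats was hybridised to 2 Affymetrix arrays as biotin-labelled cRNA. Per the labels' protocols, arrays were read with Command Console 3.1 and the signal computed with MAS 5.0 in GeneSpring 11.0. The deposited values are log2 signals of 31099 probe sets. The log2 base was read from the values, since powers of 2 gave a mean signal of 500.3 and 500.2 on the arrays after trimming 2% at each end. The scaling target is not given in the sources used here, and no detection calls were used.

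Of 31042 probe sets that are not controls, 20826 had 1 gene symbol, 436 several and 9780 were unlisted. Symbols were updated through Entrez identifiers to RefSeq (GRCr8). A gene was represented by its brightest probe set, and 9514 genes reached the floor. Where 1 array lay under the floor, folds were computed with the floor in its place and given as "at least". The number of arrays limits the precision, and no test was made. The members and the lists were chosen with earlier results of these data known.

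Named genes are all 10 members, list genes past 2-fold, the 2 brightest of each pathway list and up to 3 markers per list, apart from those said to be added later. Alternatives were 5 other scalings, an added 64 units, the mean of a gene's probe sets, leaving out probe sets ending in _s_at, _x_at or _a_at, other floors, and limits of 1.5-fold and 3-fold. Calculations used Python 3.11.15, pandas 2.3.3, numpy 2.4.6 and statsmodels 0.14.6, and were tested on simulated data.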

Additional observations from a re-analysis of the deposited data

How the results depend on the processing

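The direction of all 9 measured genes was the same under the 5 other scalings. The other 5 alternatives (64 units added, the mean over probe sets, probe sets left out by suffix, and both other floors) cannot turn a sign, since each gene has 1 probe set. Leaving out probe sets by suffix removes Spp1 and Cd24, the 2 lower members above the floor, and the median of the members was then 0.54. With the floor at the 75th percentile Spp1 and Cd24 lay under it. The median of the members was 0.81 and 2 of them were at least 2-fold higher with poly-A control scaling. That median was 0.62 with hybridisation control scaling, 0.62 with the floor at the 75th percentile and 0.23 with no floor. At a limit of 1.5-fold, 2 were higher and 1 lower (15.8% and 12% of all genes), and at 3-fold 0 were higher. Of the 9 measured genes, 0 were near background with no floor and 5 with the floor at the 75th percentile. The share of all genes at least 2-fold higher was 10.2% with hybridisation control scaling, 16.3% with poly-A scaling and 11.7% with no floor, and that of genes at least 2-fold lower 2.21%, 1.33% and 8.53%. The cause of these shifts was not tested, apart from the added constant of the control scalings. No paired analysis was possible because each group is 1 array. Signal over background limits Krt7, Cd24 and Krt19.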

Other observations

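Of 25 keratin genes with a named probe set, 21 are not members, and 18 of those 21 were under the floor, among them Krt5, Krt14, Krt15, Krt20 and Krt23. The 3 above it were Krt10, Krt17 and Krt79. Krt79 had signals of 756 after 1/3PH and 588 after 2/3PH, well above the floor of 89.2, although keratin 79 is known mainly from skin appendages. It lies near Krt8 in RefSeq order, on the far side of Krt8 from Krt18. Krt10 had signals of 167 and 203, and Krt17 121 and 95.4.

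Genes next to the members showed no shared direction. Beside Krt18, the translation factor Eif4b had signals of 802 and 1154, a log2 ratio of 0.53, and the next gene, the focal adhesion protein Tns2, had 240 and 102, a log2 ratio of -1.23. On the albumin side of chromosome 14, Afp at 0.55 stood between Afm at -0.34 and Alb at -0.23. Beside Spp1 at -0.65 lay Pkd2 at -0.13, and the bone matrix genes Mepe, Ibsp and Dmp1 were all under the floor. These genes were picked by position after the members' values were seen.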
